A study of Mus musculus with 59 samples.

Results

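The cytochrome P450 genes of families 1 to 3 were followed in the livers of 1-month-old mice that carried altered E2f alleles. Members were the genes whose probe sets on the array were annotated to a single symbol of the form Cyp1, Cyp2 or Cyp3 plus a subfamily letter and a number. This rule, which uses names and no measured change, gave 43 genes of the 18193 genes tested. They fell into 14 subfamilies, of which Cyp2c had 11 members, Cyp2d 8, Cyp2j 5, Cyp3a 5, Cyp2b 4 and Cyp1a 2, and the other 8 subfamilies (Cyp1b, Cyp2a, Cyp2e, Cyp2f, Cyp2g, Cyp2r, Cyp2s and Cyp2u) had 1 each. Where a gene had more than 1 probe set (7 members), the brightest was used. A probe set shared by Cyp2a5 and Cyp2a4 and another shared by Cyp3a41a and Cyp3a41b carry 2 symbols each and were therefore not members.

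The mice were 4 weeks old and of a mixed strain background made of FVB/NT, 129S1/Svlmj and C57BL/6NT. Wildtype livers (wt) gave 12 arrays, livers with an E2f3a knock-out (3aKO) 10, livers with the E2F1 knock-in (1KI) 10 and those with the E2F3b knock-in (3bKI) 5. Locus and promoter of either knock-in were not given in the sources used. E2F proteins are transcription factors of the cell cycle, and the 2 proteins made from E2f3, called E2f3a and E2f3b, start from separate promoters. Each array was hybridized with RNA of a liver sample, and all values are log2 expression values, so a difference of 1 is a factor of 2. The authors deposited the arrays in 2 normalizations, one of wt, 3aKO and 1KI and another of the same wt and 3aKO arrays with 3bKI, and each comparison was made within 1 of them. The labels do not say that arrays come from separate animals, so the p-values cover only the spread among these arrays, which may be technical.

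P450 enzymes are heme proteins of the endoplasmic reticulum that insert an oxygen atom into drugs, steroids, fatty acids and bile acids, with electrons from P450 oxidoreductase and cytochrome b5. Families 1 to 3 carry most of the oxidation of foreign compounds in the liver, and their genes are driven by hepatocyte factors and by the receptors AHR (Cyp1), CAR (Cyp2b) and PXR (Cyp3a). In mouse liver several Cyp2b, Cyp2d and Cyp3a genes are known to differ between females and males, a pattern set by growth hormone and the factor STAT5.

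Members of a subfamily shared a chromosome. In the RefSeq annotation of GRCm38.p6 all 11 Cyp2c members are on chromosome 19, all 8 Cyp2d members on chromosome 15, all 5 Cyp3a members on chromosome 5 and all 5 Cyp2j members on chromosome 4, while the Cyp2a, Cyp2b, Cyp2e, Cyp2f, Cyp2g, Cyp2r and Cyp2s members are on chromosome 7. Both Cyp1a members are on chromosome 9, and Cyp1b1 and Cyp2u1 are alone on chromosomes 17 and 3. The results below turn most on Cyp3a16, Cyp3a44, Cyp2d9, Cyp2b9 and Cyp2b13. Their promoters, the 250 bases before the gene start in RefSeq (GRCm38.p6), are shown because the largest differences below are those of these 5 genes. Capitals mark matches, on either strand, to a nuclear receptor half-site (AGGTCA), the HNF4 word CAAAGTCCA, the FOXA word TGTTTAC, the C/EBP word TTGCNNAA and the TATA word TATAAA:
Cyp3a16 chr5:145469724-145469973 (minus strand): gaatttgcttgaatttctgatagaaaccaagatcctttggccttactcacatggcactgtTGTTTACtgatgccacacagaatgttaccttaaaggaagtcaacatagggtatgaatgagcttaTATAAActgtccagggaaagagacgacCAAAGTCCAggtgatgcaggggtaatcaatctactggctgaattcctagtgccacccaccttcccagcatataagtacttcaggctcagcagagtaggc
Cyp3a44 chr5:145805875-145806124 (minus strand): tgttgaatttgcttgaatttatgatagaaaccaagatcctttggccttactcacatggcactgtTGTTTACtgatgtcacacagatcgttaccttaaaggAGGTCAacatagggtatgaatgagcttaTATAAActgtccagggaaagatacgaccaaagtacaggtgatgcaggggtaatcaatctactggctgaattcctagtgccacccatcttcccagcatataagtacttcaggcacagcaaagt
Cyp2d9 chr15:82452127-82452376 (plus strand): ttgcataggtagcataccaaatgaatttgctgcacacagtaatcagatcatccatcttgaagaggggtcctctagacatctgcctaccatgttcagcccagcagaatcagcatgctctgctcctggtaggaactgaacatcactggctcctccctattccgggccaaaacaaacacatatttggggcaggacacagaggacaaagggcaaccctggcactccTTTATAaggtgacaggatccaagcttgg
Cyp2b9 chr7:26173159-26173408 (plus strand): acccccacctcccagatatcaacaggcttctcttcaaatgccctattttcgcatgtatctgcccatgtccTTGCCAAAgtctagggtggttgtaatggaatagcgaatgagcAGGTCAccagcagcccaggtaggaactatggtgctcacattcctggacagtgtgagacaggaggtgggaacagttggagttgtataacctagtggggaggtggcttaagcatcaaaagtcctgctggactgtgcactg
Cyp2b13 chr7:26061245-26061494 (plus strand): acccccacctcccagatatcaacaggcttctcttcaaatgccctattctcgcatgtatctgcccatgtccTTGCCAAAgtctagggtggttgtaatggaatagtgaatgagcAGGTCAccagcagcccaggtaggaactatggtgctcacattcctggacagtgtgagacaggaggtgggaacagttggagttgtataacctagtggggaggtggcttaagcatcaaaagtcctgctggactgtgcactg
The promoters of Cyp2b9 and Cyp2b13 were the same in 248 of 250 aligned bases (99.2%), and those of Cyp3a16 and Cyp3a44 in 236 of 254 aligned columns (92.9%). Between subfamilies only Cyp2b9 with Cyp2d9, Cyp3a16 with Cyp2d9 and Cyp3a16 with Cyp2b9 were aligned, and they gave 44.3% to 46.9%. Cyp3a16 held the FOXA word 190 to 184 bases before the start, the TATA word 126 to 121 and the HNF4 word 99 to 91. Cyp3a44 held the FOXA word 186 to 180 and the TATA word 122 to 117 bases before the start, had no match to the HNF4 word, and had an AGGTCA at 150 to 145. Cyp2b9 and Cyp2b13 held the C/EBP word 180 to 173 and AGGTCA 138 to 133 bases before the start. The only match in Cyp2d9 was a TATA word on the opposite strand, 28 to 23 bases before the start.

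RefSeq promoters were at hand for 35 of the 43 members. The 8 without one were Cyp2c23, Cyp2c54, Cyp2d12, Cyp2d13, Cyp2d22, Cyp2d34, Cyp2g1 and Cyp2u1, so several genes called below were not searched. The HNF4 word stood in 5 of them (Cyp2c65, Cyp2c68, Cyp2c70, Cyp3a11 and Cyp3a16), against 0.381% of 27025 promoters searched. The FOXA word stood in 6 members (Cyp2c38, Cyp2c39, Cyp2j5, Cyp3a11, Cyp3a16 and Cyp3a44), against 3.09% of promoters. AGGTCA stood in 11 members against 13.8%, the C/EBP word in 7 against 9.55%, and the TATA word in 17 against 13% of promoters. The STAT5 word TTCNNNGAA stood in 1 member (Cyp2j11) against 7.18%, and the AHR word GCGTG in 6 against 28.2%. None of 4 E2F words (TTTCCCGC, TTTGGCGC, TTTCGCGC and TTTGCCGC) stood in any of the 35 promoters, against 1.91% of promoters, and neither did the PAR bZip word TTATGTAA, against 0.862%. Words this rare may be missing from 35 promoters without any depletion. All words were searched on both strands, and a match describes letters and not a bound site.

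The members spanned the range of the array. In the normalization with 1KI 30 of the 43 members were above the median signal of all genes (6.91), and the 13 below it were Cyp1a1, Cyp1b1, Cyp2b19, Cyp2c55, Cyp2c65, Cyp2d12, Cyp2d34, Cyp2d40, Cyp2j9, Cyp2j11, Cyp2j13, Cyp2s1 and Cyp3a16. The 6 brightest in wt were Cyp2e1, which oxidises ethanol, Cyp3a11, the main drug-oxidising Cyp3a enzyme of mouse liver, Cyp2f2, which acts on naphthalene, Cyp2c70, which hydroxylates bile acids, Cyp2c68 and Cyp2c29. Cyp2e1 read 14.22, 14.27 and 14.37 (lowest, median, highest) in wt, 14.20, 14.25 and 14.34 in 3aKO and 14.23, 14.28 and 14.32 in 1KI. Cyp3a11 read 14.11, 14.25 and 14.33 in wt, 14.12, 14.24 and 14.41 in 3aKO and 14.11, 14.21 and 14.25 in 1KI. The ranges of Cyp2e1 and Cyp3a11 overlapped in all genotypes, and neither passed the test in any comparison. Of the 6, Cyp2c68 alone was called in a comparison of genotypes, in 3bKI. Signals this near the top of the array may be compressed, which was not tested.

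Facts of the arrays touch the results in 2 ways. By the X-inactivation transcript Xist and 3 Y-linked genes (Eif2s3y, Kdm5d and Uty), each array was of 1 of 2 kinds, which the labels do not name, here called Xist arrays and Y-linked arrays. The index of Xist minus the mean of the Y-linked genes was at least 8.38 in Xist arrays and at most 0.43 in Y-linked ones. Wt had 5 Xist and 7 Y-linked arrays, 3aKO 5 and 5, 1KI 5 and 5, and 3bKI 2 and 3. Hybridization controls, which are spiked in, were higher on every 1KI array (11.00 to 11.83) and 3bKI array (11.23 to 11.95) than on every 3aKO array (9.97 to 10.35 with 1KI). Only wt 1 and wt 2, both Y-linked arrays, shared that higher level, so among Xist arrays and against 3aKO the level and the knock-in genotypes cannot be told apart. Poly-A controls read 13.77 to 13.85 on 3bKI arrays against 8.19 to 9.70 on the wt and 3aKO arrays beside them. The 3' minus 5' signal of control transcripts, a measure of RNA integrity, was 1.75 on 1KI 6, against 0.45 to 0.75 on all other arrays of its normalization. It was 0.28 to 0.36 on the 3bKI arrays, below all wt and 3aKO arrays beside them (0.48 to 0.75). No wt or 3aKO array, wt 1 and wt 2 included, shared these poly-A or integrity values. Both measures and the 3bKI genotype therefore cannot be told apart. E2f3 differed by -0.25 ± 0.07 between 3aKO and wt (adjusted p = 0.13), and E2f1 by -0.25 ± 0.11 between 1KI and wt (adjusted p = 0.086), but probe sets annotated to these genes need not lie in the altered part. Markers of hepatocytes averaged 14.27 to 14.41 on the wt, 3aKO and 1KI arrays, and markers of lung, kidney and gut epithelium 5.36 to 5.67.

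**Figure D1:**
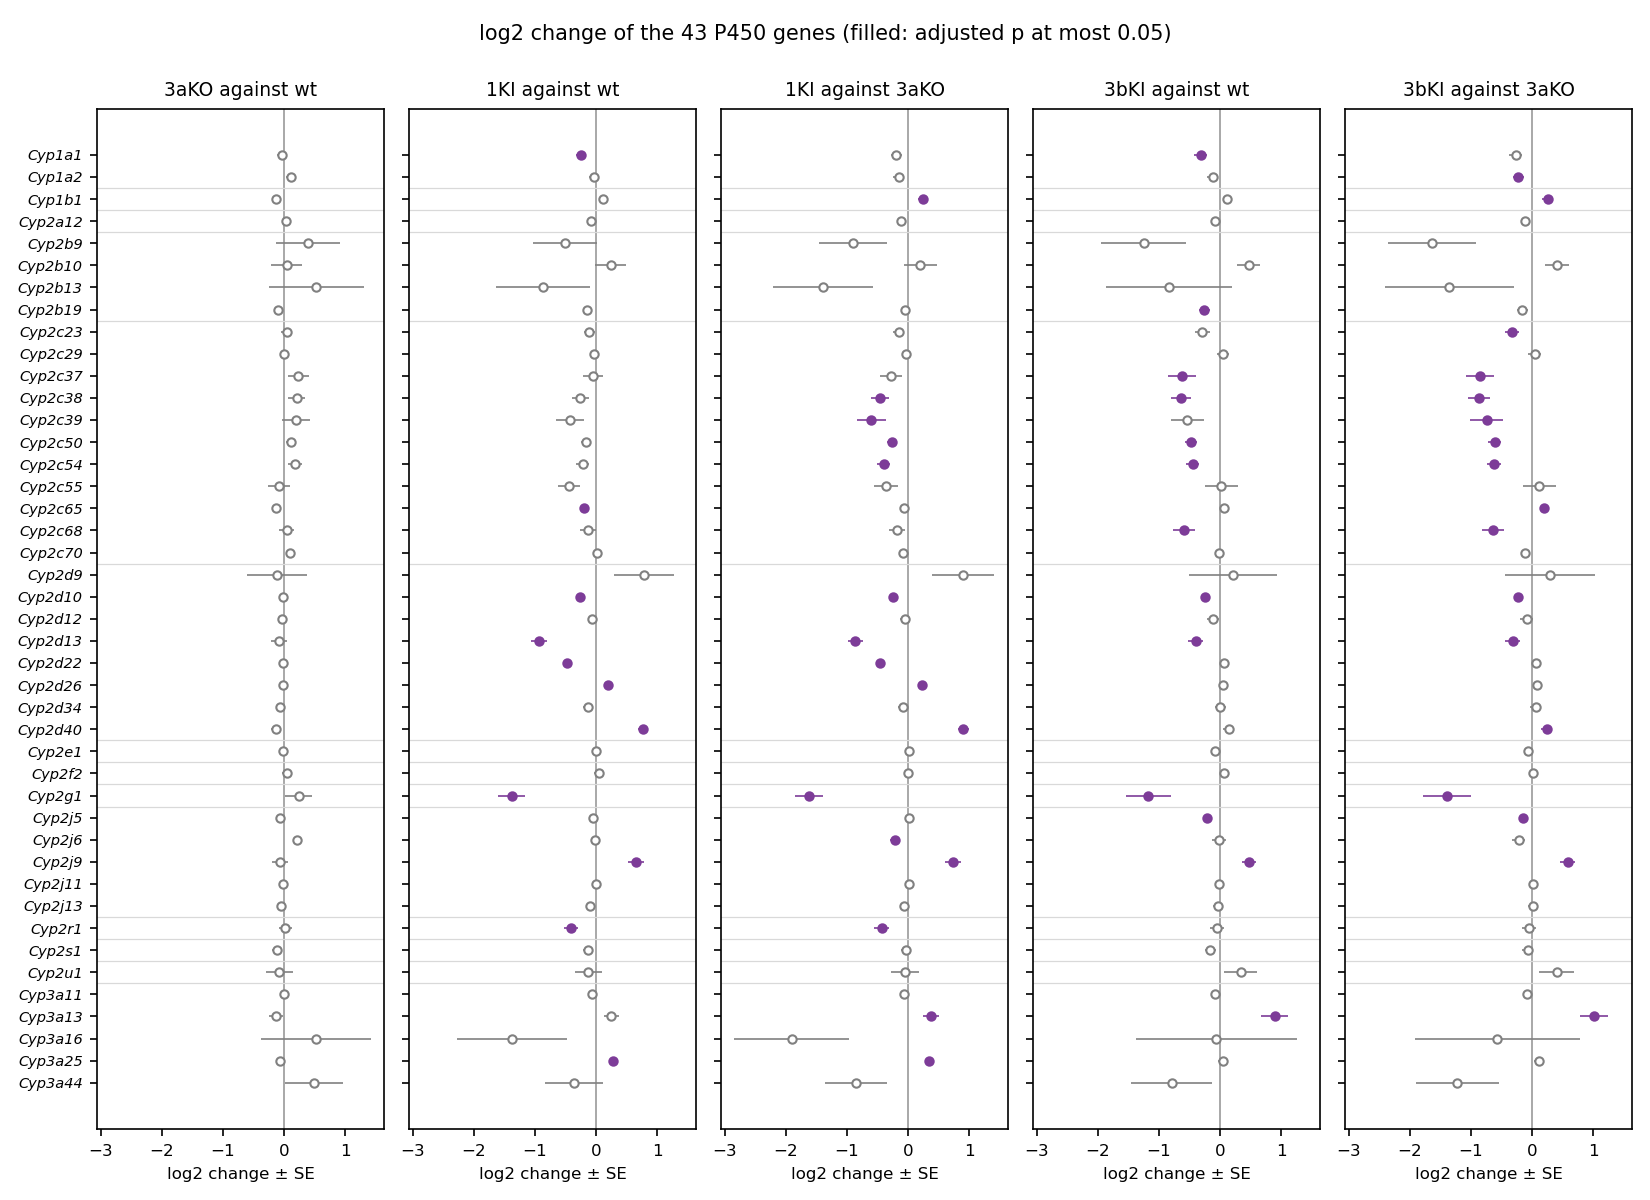
Log2 change (points) ± SE (bars) of all 43 members, by subfamily, in 5 comparisons, with filled points where the adjusted p of limma was at most 0.05. The 3aKO column holds no filled point, and the knock-in columns hold 11 to 17.

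Loss of E2f3a left no P450 member called. Against wt, 0 of the 43 members passed limma's test (adjusted p at most 0.05 by Benjamini-Hochberg over all 18193 genes) in 3aKO, where 0.176% of all genes did, and 3 members had an unadjusted p under 0.05. Members differed by -0.13 to 0.53 with a median of -0.01, and the median of all genes was also -0.01. With the kind of array as a covariate the count was again 0, beside 0.253% of all genes, and 0 members (and 0 of all genes) differed in their 3aKO change between the kinds of array described above, where 1 member had an unadjusted p under 0.05 by limma. In simulated data with 200 changed genes, the same test found 92.6% of changes of 0.5. The simulated spread was that within genotype and kind of array, and more genes were changed than the 32 that passed here. The figure may therefore be too high for this comparison. That figure does not cover the members that differ most between kinds of array, since in this comparison the SE was 0.90 for Cyp3a16, 0.77 for Cyp2b13, 0.52 for Cyp2b9 and 0.49 for Cyp2d9 (0.38, 0.29, 0.23 and 0.19 with kind as a covariate).

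The kind of array separated the members far more than 3aKO did. Between the 15 Xist and 17 Y-linked arrays of wt, 3aKO and 1KI, with genotype in the fit, 20 of 43 members differed, 14 higher and 6 lower in Xist arrays. Of all genes 5.16% differed, 3.30% higher and 1.86% lower. The 4 members with a difference of more than 2 toward Xist arrays were all Cyp2b or Cyp3a genes: Cyp3a16, a form known from perinatal liver, Cyp2b13, Cyp2b9 and Cyp3a44. The largest difference the other way was that of Cyp2d9, a hydroxylase of testosterone known from male liver.

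Cyp3a16 read 7.22, 8.06, 8.35, 8.39 and 8.58 on the 5 wt Xist arrays and 2.89, 3.18 and 3.59 (lowest, median, highest) on the 7 wt Y-linked arrays. Cyp2b13 read 11.44, 11.72, 11.96, 12.22 and 12.77 on wt Xist arrays against 7.37, 7.81 and 9.32 on wt Y-linked ones. The 2 kinds did not overlap for either gene, and for Cyp3a16 the Y-linked arrays were near the lowest value of the table. Whether Cyp3a16 was above background there was not tested, so no fold is given for it between the kinds. Cyp2b9 read 11.95, 12.20, 12.21, 12.23 and 12.33 on wt Xist arrays and 9.24, 9.60 and 10.80 on wt Y-linked arrays. Cyp3a44 read 8.64, 8.99, 9.47, 9.66 and 9.88 on wt Xist arrays and 6.64, 6.90 and 7.82 on wt Y-linked arrays. Neither gene's kinds overlapped in wt. Cyp2d9 ran the other way, at 9.32, 10.26, 10.32, 10.68 and 11.00 on wt Xist arrays and 12.85, 13.14 and 13.39 on wt Y-linked arrays, again with no overlap.

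Over the 3 genotypes the Xist minus Y-linked difference was 3.94 ± 0.32 for Cyp3a16 (adjusted p = 6.6e-11 by limma), 3.45 ± 0.24 for Cyp2b13 (10.9-fold, adjusted p = 4e-12) and 2.28 ± 0.19 for Cyp2b9 (4.84-fold, adjusted p = 1.2e-10). Cyp3a44 differed by 2.10 ± 0.16 (4.27-fold, adjusted p = 1.7e-11), Cyp2c39, which hydroxylates retinoic acid, by 0.89 ± 0.11 (adjusted p = 7.3e-07) and Cyp2g1, best known from olfactory mucosa, by 0.83 ± 0.12 (adjusted p = 1.8e-05). The 8 others higher in Xist arrays, Cyp1b1, Cyp2a12, Cyp2b10, Cyp2c37, Cyp2c38, Cyp2c50, Cyp2c68 and Cyp2d26, differed by 0.14 to 0.65. Cyp2d9 was lower in Xist arrays by -2.19 ± 0.15 (4.57-fold, adjusted p = 3.3e-12), and Cyp2u1, a hydroxylase of fatty acids, by -0.90 ± 0.10 (adjusted p = 2.2e-07). Cyp2c55, Cyp2d13, Cyp2c23 and Cyp2c29 were lower by -0.64 ± 0.11, -0.31 ± 0.09, -0.30 ± 0.05 and -0.19 ± 0.05 (adjusted p = 0.00012, 0.038, 0.00042 and 0.0085 by limma). Cyp2c29 and Cyp2c39, both in the chromosome 19 group, thus lay on opposite sides. In wt and 3aKO arrays alone Cyp3a16 differed by 5.03 and Cyp2d9 by -2.61, more than when 1KI arrays were included. In those arrays Cyp1b1 and Cyp2b10 (adjusted p = 0.11 each) and Cyp2c50 (adjusted p = 0.34) did not pass. The shared probe set of Cyp3a41a and Cyp3a41b, outside the member rule, was 2.54 higher in Xist arrays (adjusted p = 4e-08), and that of Cyp2a5 and Cyp2a4 0.84 higher (adjusted p = 3.5e-07).

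**Figure D2:**
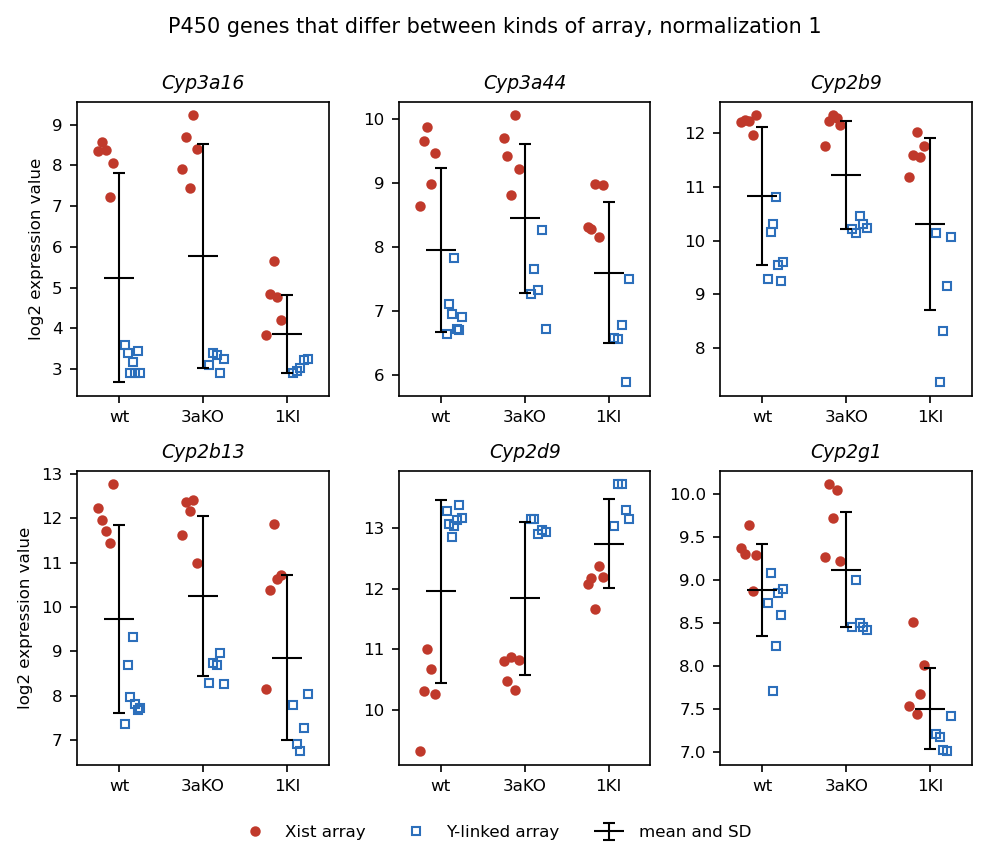
Log2 expression of Cyp3a16, Cyp3a44, Cyp2b9, Cyp2b13, Cyp2d9 and Cyp2g1 on each array of wt, 3aKO and 1KI, with filled red circles for Xist arrays, open blue squares for Y-linked arrays and black bars for mean and SD. Cyp3a16 on the 1KI Xist arrays (3.83 to 5.64) lies below all wt Xist arrays, and Cyp2d9 on the 1KI Xist arrays (11.66 to 12.38) lies above them.

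In 1KI livers the subfamily with most calls was Cyp2d, and Cyp2g1 had the largest change among the members called. Against wt 11 of the 43 members passed the test, 4 higher and 7 lower, and 27.6% of all genes did (10.2% rose and 17.5% fell), so the members' share was near that of all genes. The median change of the members was -0.11 and that of all genes -0.05. By subfamily, 5 of 8 Cyp2d members were called (2 rose and 3 fell), 1 of 11 Cyp2c members fell, 1 of 5 Cyp3a and 1 of 5 Cyp2j members rose, 1 of 2 Cyp1a members fell, and 0 of 4 Cyp2b members were called. Cyp2g1 and Cyp2r1, each the only member of its subfamily, fell.

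Cyp2d22, held to be a mouse counterpart of human CYP2D6, read 12.14, 12.40 and 12.53 (lowest, median, highest) in wt, 12.23, 12.38 and 12.50 in 3aKO and 11.67, 11.95 and 12.09 in 1KI. Cyp2d13 read 10.96, 11.44 and 11.69 in wt, 11.04, 11.33 and 11.76 in 3aKO and 10.15, 10.28 and 11.66 in 1KI. Every 1KI array lay below every wt and 3aKO array for Cyp2d22, and all but 1KI 6 (11.66, the others 10.15 to 10.69) did for Cyp2d13. Cyp2d22 fell by -0.47 ± 0.05 (adjusted p = 6.7e-08 by limma) and Cyp2d13 by -0.94 ± 0.13 (adjusted p = 1.3e-06), or -1.07 without 1KI 6. Their second probe sets differed by -0.63 (adjusted p = 1.6e-09) and -1.01 (adjusted p = 2.6e-07).

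Cyp2d10 read 13.31, 13.45 and 13.67 in wt and 13.04, 13.19 and 13.44 in 1KI, and fell by -0.26 ± 0.05 (adjusted p = 0.00019 by limma). Cyp2d26 went the other way, at 12.93, 13.07 and 13.26 in wt and 13.02, 13.32 and 13.41 in 1KI, and rose by 0.20 ± 0.05 (adjusted p = 0.0032). The ranges of both genes overlapped between wt and 1KI. The fifth Cyp2d member, Cyp2d40, was below the median signal and is described after its values were seen, because its groups did not overlap. It read 5.49, 5.67 and 5.99 in wt, 5.26, 5.54 and 5.92 in 3aKO and 6.04, 6.46 and 6.88 in 1KI, a rise of 0.76 against wt (adjusted p = 3.1e-08). Neighbouring Cyp2d genes thus differed in direction in the same livers. Genes of this cluster are close paralogs, so probes of 1 member may also bind another's RNA.

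Cyp2g1 read 7.71, 8.89 and 9.64 in wt, 8.42, 9.12 and 10.12 in 3aKO and 7.01, 7.43 and 8.52 in 1KI, and fell by -1.38 ± 0.22 (2.6-fold, adjusted p = 2.1e-05 by limma). Cyp2r1, which adds the first hydroxyl group to vitamin D, read 8.14, 8.45 and 8.82 in wt and 7.01, 8.16 and 8.52 in 1KI, and fell by -0.41 ± 0.11 (adjusted p = 0.007). Cyp3a25 read 12.95, 13.23 and 13.54 in wt and 13.24, 13.56 and 13.89 in 1KI, and rose by 0.28 ± 0.07 (adjusted p = 0.0015). The 1KI and wt ranges of these 3 genes overlapped, and the lowest Cyp2r1 value, 7.01, was that of 1KI 6. Below the median signal Cyp2j9 rose by 0.65, and Cyp1a1 and Cyp2c65 fell by 0.24 and 0.20.

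**Figure D3:**
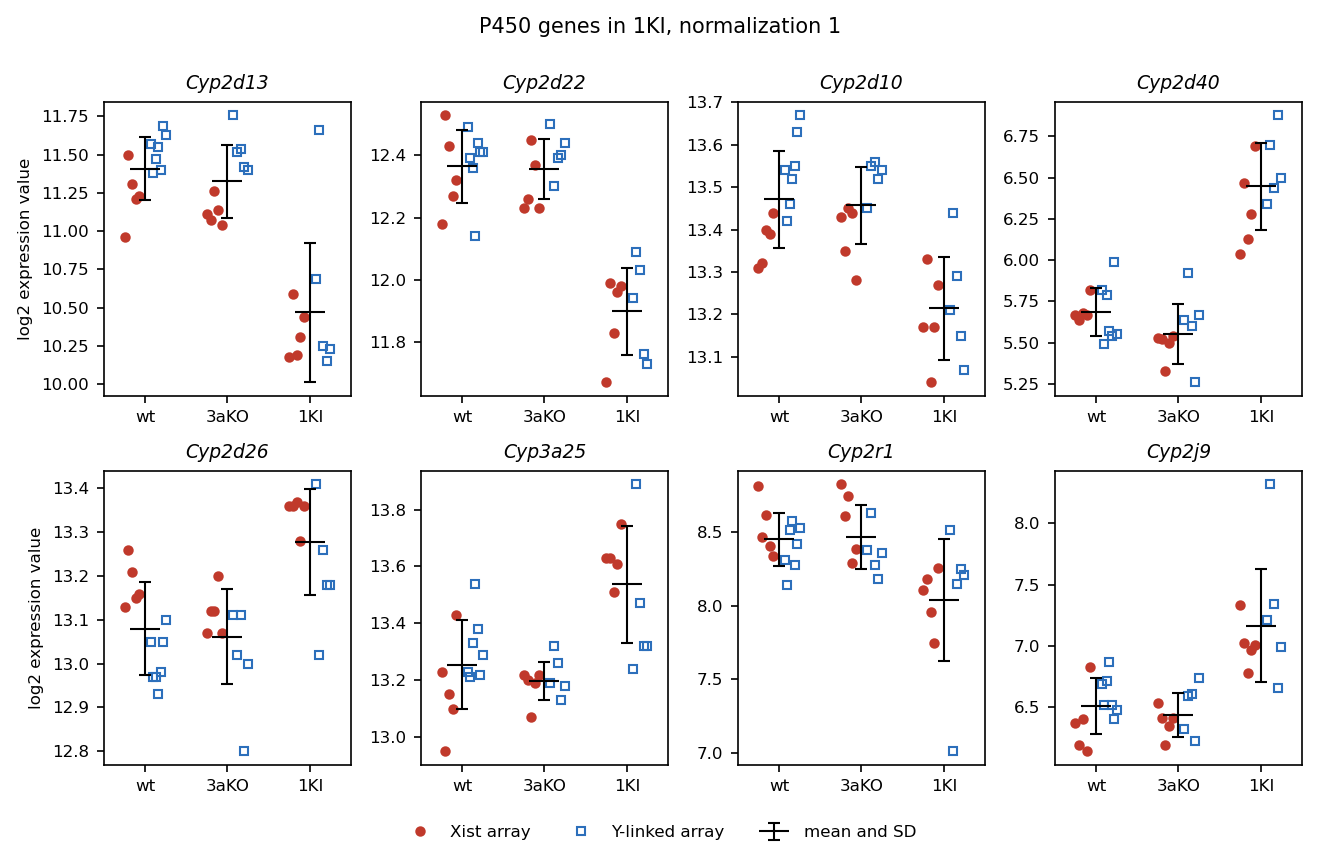
Log2 expression of Cyp2d13, Cyp2d22, Cyp2d10, Cyp2d40, Cyp2d26, Cyp3a25, Cyp2r1 and Cyp2j9 on each array of wt, 3aKO and 1KI, with filled red circles for Xist arrays, open blue squares for Y-linked arrays and black bars for mean and SD. The 1KI arrays do not overlap wt for Cyp2d22 (below) and Cyp2d40 (above), and 1KI 6 stands apart for Cyp2d13 at 11.66.

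With the level of the hybridization controls as a block, which rests on wt 1 and wt 2, 5 members were called in 1KI against wt, beside 4.30% of all genes. These were Cyp2d22 (-0.57, adjusted p = 0.00053), Cyp2d13 (-1.02, adjusted p = 0.010), Cyp2d40 (0.77, adjusted p = 0.0028), Cyp2d10 (-0.33, adjusted p = 0.028) and Cyp2c65 (-0.38, adjusted p = 0.035). Cyp2g1 was then at -1.29 (adjusted p = 0.067). Cyp2c65 read 3.26 to 3.67 in wt and 2.93 to 3.41 in 1KI, near the lowest value of the table, and its probe set may bind related transcripts. The wt 1 and wt 2 arrays read 12.49 and 12.44 for Cyp2d22, 11.57 and 11.40 for Cyp2d13 and 5.82 and 5.54 for Cyp2d40, all inside the range of the other wt arrays. Within the higher level alone, 10 1KI against 2 wt arrays, 1 member was called, Cyp2d22, and Cyp2d13 differed by -1.02 (adjusted p = 0.12). The share of all genes called within that level is not given here.

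With the kind of array as a covariate 21 members were called in 1KI against wt, 5 that rose and 16 that fell, beside 29.0% of all genes (10.6% rose and 18.5% fell). Among the members added, Cyp3a16 (-1.71), Cyp2b13 (-1.16), Cyp2b9 (-0.70), Cyp3a44 (-0.53) and Cyp2c39 (-0.49) fell and Cyp2d9 (0.97) rose, together with smaller falls of Cyp2a12, Cyp2c38, Cyp2c50 and Cyp2c55. Of these, Cyp2d9 and Cyp2c55 were lower in Xist arrays and the others higher. Direction and kind did not always go together: Cyp2c55 (-0.40) and Cyp2d13 (-0.91), both lower in Xist arrays, fell. Cyp2d26, higher in Xist arrays, rose (0.19). With kind and level both in the fit 5 members were called (3.81% of all genes): Cyp2g1 (-1.72), Cyp2d13, Cyp2d22, Cyp2d40 and Cyp2c65.

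The change of a knock-in within each kind, and the test of its difference between kinds, was added after seeing the data. In 1KI against wt, 4 of all 18193 genes (0.0220%) differed in their change between Xist and Y-linked arrays, and 2 of the 4 were P450 members, Cyp3a16 and Cyp2d9. Cyp3a16 read 3.83, 4.21, 4.76, 4.85 and 5.64 on the 5 1KI Xist arrays and 2.90 to 3.25 on the 5 1KI Y-linked ones, and 7.44 to 9.24 on the 3aKO Xist arrays. All 1KI Xist arrays were below all wt and 3aKO Xist arrays and above all 1KI Y-linked arrays. The change was -3.46 ± 0.28 among Xist arrays (adjusted p = 1e-09 by limma) and -0.12 ± 0.26 among Y-linked arrays (adjusted p = 0.79), where wt was already near the lowest value of the table and left little room for a fall. No fold is given, because signal above background was not tested on the 1KI arrays. The difference was -3.34 ± 0.38 (adjusted p = 9.1e-06), and -3.55 against 3aKO (adjusted p = 5.2e-06), where 0.0165% of all genes passed and Cyp3a16 was the only member to do so.

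Cyp2d9 read 11.66, 12.08, 12.18, 12.20 and 12.38 on 1KI Xist arrays and 13.03 to 13.73 on 1KI Y-linked arrays, and 10.33 to 10.87 on 3aKO Xist arrays. The 1KI Xist arrays lay above all wt and 3aKO Xist arrays and below all Y-linked arrays. Cyp2d9 rose by 1.78 ± 0.19 among Xist arrays (3.44-fold, adjusted p = 3.8e-07 by limma) and differed by 0.25 ± 0.18 among Y-linked arrays (adjusted p = 0.35). The difference was 1.53 ± 0.26 (adjusted p = 0.0096), and with 3aKO in place of wt it was 1.07 (adjusted p = 0.35). On 1KI Xist arrays, then, Cyp3a16, higher on Xist arrays in wt, was lower, and Cyp2d9, lower on Xist arrays in wt, was higher. The hybridization controls were higher on all these 1KI Xist arrays than on all wt and 3aKO Xist arrays, so their level and the genotype cannot be told apart there.

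Cyp3a44, of the same subfamily as Cyp3a16, read 8.15, 8.28, 8.32, 8.97 and 8.99 on 1KI Xist arrays, against 8.64 to 9.88 in wt, with a change of -0.79 ± 0.29 there (adjusted p = 0.072 by limma). Cyp2b13 read 8.16, 10.39, 10.63, 10.72 and 11.87 on 1KI Xist arrays, against 11.44 to 12.77 in wt, and fell by -1.67 on these arrays (adjusted p = 0.011 by limma), while its change among Y-linked arrays was -0.73 (adjusted p = 0.21). The difference of Cyp2b13 between kinds did not pass (adjusted p = 0.91). Cyp2b9 read 11.17 to 12.02 on 1KI Xist arrays, with a change of -0.57 ± 0.33 (adjusted p = 0.29). Cyp2g1 changed alike in both kinds, by -1.46 ± 0.21 among Xist arrays and -1.42 ± 0.20 among Y-linked arrays (adjusted p = 3e-05 and 9.8e-06).

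Against 3aKO, in a comparison that shares the 1KI arrays with that against wt, 16 members were called, 6 that rose and 10 that fell, beside 31.0% of all genes (11.9% rose and 19.0% fell). Of the Cyp2d members Cyp2d13 (-0.86), Cyp2d22 (-0.46) and Cyp2d10 (-0.24) fell and Cyp2d40 (0.90) and Cyp2d26 (0.22) rose. Of 11 Cyp2c members 4 fell, namely Cyp2c39 by -0.60 ± 0.24, Cyp2c38 by -0.46 ± 0.15, Cyp2c54 by -0.40 ± 0.11 and Cyp2c50 by -0.27 ± 0.08 (adjusted p = 0.05, 0.015, 0.0072 and 0.0085 by limma). Cyp2g1 fell by -1.62 ± 0.23 (adjusted p = 2.6e-06), and Cyp3a25 and Cyp3a13 rose by 0.34 ± 0.07 and 0.38 ± 0.13 (adjusted p = 0.00025 and 0.019). Cyp2r1 and Cyp2j6 fell, and Cyp2j9 and Cyp1b1 rose. Second probe sets passed for Cyp2d22 (-0.66) and Cyp2d13 (-0.91) but not for Cyp2j6 (-0.20, adjusted p = 0.085 by limma). The other probe sets of Cyp1b1 differed by 0.03 and -0.09 (adjusted p = 0.79 and 0.46). With the level as a block 2 members were called, beside 2.29% of all genes, and Cyp2c39 then stood at 0.18, the opposite sign, or at -0.25 (adjusted p = 0.72) with kind and level.

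In 3bKI livers the subfamily with most falls was Cyp2c, whose enzymes epoxidise arachidonic and linoleic acid. Against wt 13 of 43 members were called, 2 that rose and 11 that fell, beside 29.2% of all genes (13.4% rose and 15.9% fell), again a share near that of all genes. The median change of the members was -0.08 and that of all genes 0.00. Of 11 Cyp2c members 5 fell and 0 rose, with a median of -0.45 over all 11, and 8 had a negative change. Of 8 Cyp2d members 2 fell, of 5 Cyp3a members 1 rose, of 5 Cyp2j members 1 rose and 1 fell, and of 4 Cyp2b members 1 fell.

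Cyp2c50 read 11.95, 11.04, 11.89, 11.41 and 11.25 on 3bKI arrays 1 to 5, against 11.76, 11.96 and 12.35 (lowest, median, highest) in wt and 12.04, 12.11 and 12.23 in 3aKO. Cyp2c54 read 12.77, 12.21, 12.34, 12.03 and 11.53 on 3bKI arrays 1 to 5, against 12.41, 12.61 and 12.79 in wt and 12.65, 12.84 and 12.89 in 3aKO. All 5 3bKI arrays lay below all 3aKO arrays for Cyp2c50, and 3 of 5 below all wt arrays. For Cyp2c54 array 1 lay inside the wt and 3aKO ranges and the other 4 below both. Cyp2c50 fell by -0.48 ± 0.10 (adjusted p = 0.00059 by limma) and Cyp2c54 by -0.45 ± 0.11 (adjusted p = 0.0015).

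Cyp2c38 read 11.16, 9.93, 10.02, 10.17 and 10.36 on 3bKI arrays 1 to 5, against 10.50, 11.01 and 11.53 in wt, and fell by -0.64 ± 0.17 (adjusted p = 0.0051 by limma). Cyp2c37 read 7.46, 6.41, 7.50, 6.24 and 5.68, against 6.63, 7.28 and 7.74 in wt, and fell by -0.62 ± 0.23 (adjusted p = 0.041). Cyp2c68 read 14.04, 12.56, 14.02, 12.92 and 13.15, against 13.28, 13.98 and 14.39 in wt, and fell by -0.59 ± 0.18 (adjusted p = 0.012). For Cyp2c37 and Cyp2c68 the low arrays were 2, 4 and 5, all Y-linked, while arrays 1 and 3, the Xist arrays, lay inside the wt range. For Cyp2c38 every array but the first lay below the lowest wt array. Cyp2c70 and Cyp2c29, 2 of the brightest members, differed by -0.02 and 0.05 and were not called.

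**Figure D4:**
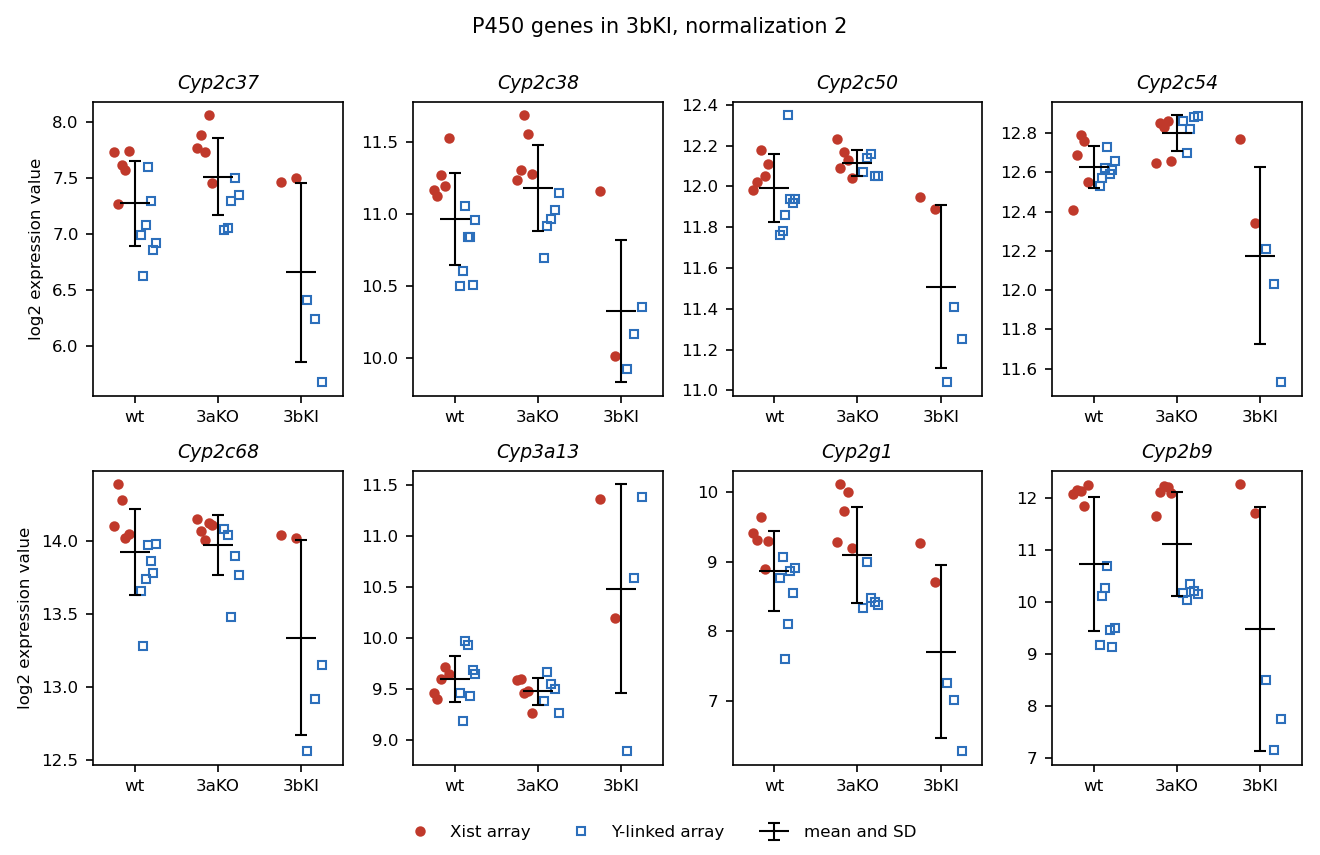
Log2 expression of Cyp2c37, Cyp2c38, Cyp2c50, Cyp2c54, Cyp2c68, Cyp3a13, Cyp2g1 and Cyp2b9 on each array of wt, 3aKO and 3bKI, with filled red circles for Xist arrays, open blue squares for Y-linked arrays and black bars for mean and SD. For Cyp2c37, Cyp2c68 and Cyp2g1 the 3 Y-linked 3bKI arrays are the low ones, and Cyp3a13 lies above wt on 4 of 5 arrays.

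Outside Cyp2c, Cyp3a13 read 11.36, 8.89, 10.20, 10.59 and 11.38 on 3bKI arrays 1 to 5, against 9.19, 9.62 and 9.97 in wt and 9.27, 9.49 and 9.67 in 3aKO. It rose by 0.89 ± 0.22 (adjusted p = 0.0028 by limma), with 4 arrays above all wt arrays and array 2 below them. Cyp2g1 read 9.27, 7.25, 8.71, 7.01 and 6.27, against 7.60, 8.91 and 9.64 in wt, and fell by -1.17 ± 0.37 (2.25-fold, adjusted p = 0.018). The Y-linked arrays 2, 4 and 5 lay below all wt arrays and the Xist arrays 1 and 3 inside their range. Cyp2d13 and Cyp2d10 fell by -0.40 ± 0.12 and -0.24 ± 0.07 (adjusted p = 0.0098 and 0.0055), and Cyp2j5, an epoxygenase of arachidonic acid, by -0.21 ± 0.05 (adjusted p = 0.0032). Cyp2d22 and Cyp2d40, which did not overlap between 1KI and wt, differed by 0.07 ± 0.07 and 0.14 ± 0.09 in 3bKI and were not called. Below the median signal Cyp2j9 rose by 0.47, and Cyp1a1 and Cyp2b19 fell by 0.32 and 0.26.

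The 3bKI group is small and these calls rest on few arrays. Cyp2g1 was not called without array 2 (adjusted p = 0.055), 4 (adjusted p = 0.07) or 5 (adjusted p = 0.11), and Cyp2c68 not without array 2 (-0.39, adjusted p = 0.09) or 4 (adjusted p = 0.06). Cyp2c37 was not called without array 2 (adjusted p = 0.1), 4 (adjusted p = 0.13) or 5 (-0.37, adjusted p = 0.23), nor Cyp2d13 without array 3 (adjusted p = 0.061). With RNA integrity as a covariate 1 member was called, Cyp2c50 (-0.74, adjusted p = 0.038), and Cyp2g1 was at -1.78 (adjusted p = 0.19). The share of all genes called in that fit is not given here. As no wt or 3aKO array shared the integrity of the 3bKI arrays, this covariate and the genotype cannot be told apart. With the level of the hybridization controls as a block 0 members were called by limma, beside 8.70% of all genes, and 8 had an unadjusted p under 0.05. With both kind and level in the fit, 3 were called, beside 8.47% of all genes: Cyp2g1 (-1.60, adjusted p = 0.0063), Cyp2c37 (-0.77, adjusted p = 0.044) and Cyp2c23 (-0.37, adjusted p = 0.039). Cyp2c23 is measured by a probe set that may bind related transcripts.

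Among the kinds, no Cyp2c member passed the test of a difference in its 3bKI change. The change among Xist and Y-linked arrays was -0.14 and -0.88 for Cyp2c68 (adjusted p of the difference 0.091 by limma), -0.15 and -0.70 for Cyp2c50 (0.059), -0.09 and -0.69 for Cyp2c54 (0.084), -0.67 and -0.61 for Cyp2c38 (0.96) and -0.42 and -0.21 for Cyp2c23 (0.61). For Cyp2c37 it was -0.10 and -0.94 (adjusted p of the difference 0.13 by limma), and for Cyp2c39 -0.16 and -0.77 (0.24). In simulated data the test of this difference found 19.6% of differences of 0.5 and 89.9% of differences of 1. Of all genes 168 (0.923%) passed it in 3bKI against wt, and 1 of them was a member, Cyp2b9. With the kind of array as a covariate, 18 members were called in 3bKI against wt, 2 that rose and 16 that fell, with 7 of the 11 Cyp2c members among the latter, beside 30.8% of all genes (14.1% rose and 16.7% fell).

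Cyp2b9 read 7.15, 7.75 and 8.50 on the 3 3bKI Y-linked arrays, against 9.13, 9.49 and 10.68 on wt and 10.04 to 10.34 on 3aKO Y-linked arrays. On the 2 3bKI Xist arrays it read 11.70 and 12.26, against 11.84 to 12.25 on the wt Xist arrays. The Y-linked 3bKI arrays lay below every wt and 3aKO array, and the Xist ones were within or near the wt Xist range. The change was -1.96 ± 0.26 among Y-linked arrays (3.88-fold, adjusted p = 4.9e-06 by limma) and -0.11 ± 0.31 among Xist arrays, a difference of 1.85 ± 0.40 (adjusted p = 0.019). It was lost without 3bKI 1 (adjusted p = 0.099) or 4 (adjusted p = 0.057). Cyp3a16, which changed in 1KI Xist arrays, differed by 0.06 and 0.00 in the 2 kinds of 3bKI arrays.

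**Figure D5:**
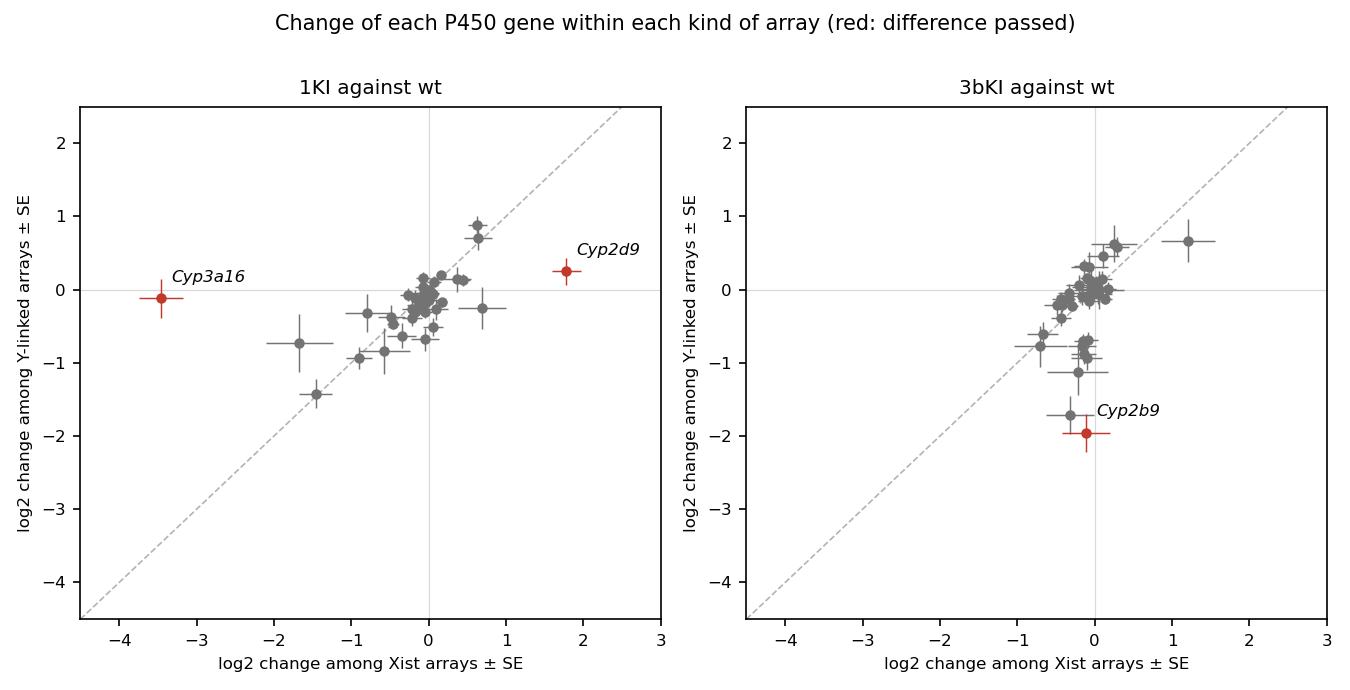
Log2 change of each member among Xist arrays (horizontal axis) and among Y-linked arrays (vertical axis), with SE bars, for 1KI and 3bKI against wt, and red points where the difference between kinds had an adjusted p of at most 0.05. Cyp3a16 (-3.46 and -0.12) and Cyp2d9 (1.78 and 0.25) stand off the diagonal in 1KI, and Cyp2b9 (-0.11 and -1.96) does in 3bKI.

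Against 3aKO 17 members were called in 3bKI, 5 that rose and 12 that fell, beside 34.2% of all genes (16.5% rose and 17.7% fell). Of 11 Cyp2c members 7 fell and 1 rose: Cyp2c38 by -0.86 ± 0.18, Cyp2c37 by -0.85 ± 0.23, Cyp2c39 by -0.74 ± 0.27, Cyp2c68 by -0.64 ± 0.18, Cyp2c54 by -0.62 ± 0.11, Cyp2c50 by -0.61 ± 0.11 and Cyp2c23 by -0.33 ± 0.12 fell, and the dim Cyp2c65 rose. Cyp2c39 was not called without array 2, 4 or 5 (adjusted p = 0.15, 0.12 and 0.11 by limma), Cyp2c23 not without array 1 or 3 (adjusted p = 0.092 and 0.2), and Cyp2c68 not without array 2 (adjusted p = 0.057). Cyp3a13 rose by 1.01 ± 0.23 (adjusted p = 0.00093 by limma) and Cyp2g1 fell by -1.39 ± 0.39 (adjusted p = 0.0055). Cyp1a2, which oxidises caffeine, also fell, by -0.23 ± 0.09, with a range of 12.63 to 13.18 in 3bKI that overlapped the 12.99 to 13.54 of 3aKO. This call was near the threshold, and in a fit by probe set it did not pass (adjusted p = 0.051 by limma). Cyp2j9, Cyp1b1 and Cyp2d40 also rose, and Cyp2d13, Cyp2d10 and Cyp2j5 also fell. The second probe set passed for Cyp2j5 (-0.53, adjusted p = 0.00019 by limma) but not for Cyp2d13 (-0.20, adjusted p = 0.2). The other probe sets of Cyp1b1 differed by 0.21 and 0.01 (adjusted p = 0.13 and 0.95). With the level as a block 0 members were called by limma (8 with an unadjusted p under 0.05), beside 6.77% of all genes, and Cyp2c39 then stood at 0.04 (-0.30 with kind and level). With RNA integrity as a covariate 0 were called by limma (5 with an unadjusted p under 0.05), and integrity and genotype again cannot be told apart. The differences between kinds against 3aKO passed for 3 members, beside 0.786% of all genes: Cyp2b9 (2.31, adjusted p = 0.0058), Cyp2c50 (0.65, adjusted p = 0.032) and Cyp2c68 (0.92, adjusted p = 0.038).

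The partners of the P450 enzymes were followed from fixed lists. Their counts stand beside 10.2% of all genes that rose and 17.5% that fell in 1KI against wt, and 13.4% and 15.9% in 3bKI against wt. Por, the oxidoreductase that feeds electrons to all of them, was not analysed here. Of 4 other electron donors, Cyb5b and Cyb5a fell by 0.26 and 0.25 and Cyb5r3 rose by 0.19 in 1KI against wt, and Cyb5b fell by 0.14 in 3bKI. Alas1, which makes the first precursor of heme, averaged 11.69 in 3bKI and 12.99 in wt, a fall of -1.30 ± 0.31 (adjusted p = 0.0018 by limma), and differed by -0.02 ± 0.17 in 1KI (adjusted p = 0.96). Of 11 genes of heme synthesis and breakdown, 4 rose and 2 fell in 1KI (median 0.06), and 3 rose and 2 fell in 3bKI (median -0.02). Ppox rose by 0.60 and 0.91 and Cpox by 0.73 and 0.62 in 1KI and 3bKI, and both are enzymes of late heme synthesis.

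Of 19 regulators of P450 genes, 5 rose and 2 fell in 1KI against wt (median 0.22), and 2 rose and 5 fell in 3bKI (median -0.16), where 27.6% and 29.2% of all genes were called. Nr1i2, which encodes PXR, rose by 0.60 ± 0.11 (adjusted p = 0.00013 by limma) and Nr1i3, which encodes CAR, by 0.46 ± 0.09 (adjusted p = 0.00031) in 1KI, and they differed by -0.09 and 0.10 in 3bKI (adjusted p = 0.64 and 0.57). Ahr, the receptor that drives Cyp1a genes, fell in both, by -0.40 ± 0.08 (adjusted p = 0.00027) and -0.48 ± 0.11 (adjusted p = 0.0017). Non-P450 targets of CAR and PXR fell in 4 of 12 and rose in 0 of 12 in 1KI, and fell in 6 and rose in 1 in 3bKI, with the transporter Slco1a4 at -0.75 and -0.81. Of 6 non-P450 AHR targets 1 fell in 1KI (Nqo1, -0.50) and 0 were called in 3bKI.

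Genes of the growth hormone and STAT5 pathway, 11 in number, had 2 falls in 1KI (the receptor Ghr at -0.24 and the kinase Jak2 at -0.20) and 3 rises and 2 falls in 3bKI (Ghr at -0.49, Jak2 at -0.37). Of all genes 10.2% rose and 17.5% fell in 1KI, and 13.4% rose and 15.9% fell in 3bKI, so the share of falls was near that of all genes. Of 12 non-P450 genes with known sex bias, 4 were higher and 4 lower in Xist arrays, led by Sult3a1, a sulfotransferase, at 6.54 (adjusted p = 3.2e-14 by limma), and Hsd3b5, a steroid dehydrogenase, at -2.17 (adjusted p = 3.1e-06). These directions were measured on the same arrays as those of the P450 members. Against wt, 3 of the 12 fell and 0 rose in 1KI, and 3 fell and 1 rose in 3bKI, among them Abcd2 at -1.06 and -1.46 and Acot3 at -1.33 and -2.58. In bulk liver, fewer cells of a type and less RNA per cell cannot be told apart.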

How the data were processed

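Liver RNA of 37 arrays was analysed. The deposited values are log2 expression values of 45101 probe sets, normalized by the authors in an unstated way, in 59 columns that hold 2 normalizations. Their range (2.13 to 15.06) set the log base. No depth applies to arrays, and the number of arrays limits the precision. Each of 18193 genes with a single-symbol probe set was represented by its brightest one, without a filter on low signal. The arrays of each normalization entered 1 model in limma 3.58.1 under R 4.3.3 (lmFit, then eBayes with no trend), with Benjamini-Hochberg adjustment at 0.05, and tested on simulated data. A 4th planned Y-linked gene, Ddx3y, had no single-symbol probe set and was not used. Genes given with full values were called members above the median signal, the 8 largest rises and falls per comparison, the 6 brightest members and up to 6 members each way between kinds of array. Dimmer called members are named with their change, except Cyp2d40. The members and lists were chosen with earlier results of these data known. Replicate numbers were not taken to pair arrays across genotypes.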

Additional observations from a re-analysis of the deposited data

Results flagged for a closer look

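Among 43 checks for a single array far from the others of its genotype, 3 found one, and chance gives about 1 in 20 groups. The checks covered only some members and genotypes, and other lone arrays were not flagged. In 1KI, Cyp2j9 read 8.32 on 1 array and 6.66 to 7.34 on the others. Cyp2f2 read 13.41 on 1 array of 1KI and 13.98 to 14.28 on the others. Cyp2d13 read 11.66 on 1KI 6, against 10.15 to 10.69 on the other 1KI arrays. Cyp2r1 read 7.01 on the same array, against 7.75 to 8.52. Cyp2d26 read 12.80 on 3aKO 8, against 13.00 to 13.20 on the other 3aKO arrays. The control transcripts of 1KI 6 had a 3' minus 5' signal of 1.75, against 0.45 to 0.66 on the other 1KI arrays, and the part of RNA integrity in these values was not tested.

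The change of 3 members differed between kinds of array. Cyp3a16 changed in 1KI against wt by -3.34 more in Xist than in Y-linked arrays, and Cyp2d9 by 1.53 more. Cyp3a16 read 2.89 to 3.59 on wt Y-linked arrays, near the lowest value of the table, so a fall could hardly be seen there. Cyp2b9 differed by 1.85 in 3bKI against wt. Each difference was tested in the fit across all genes.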

How the results depend on the processing

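For 1KI against wt the count of members called was 11, and it was 7 with only genes above the median signal, 5 with the level of the hybridization controls as a block, 1 within 1 level, 21 with the kind of array as a covariate and 5 with kind and level. For 1KI against 3aKO it was 16, and 2 with the level and 3 with kind and level. For 3bKI against wt it was 13, and 0 with the level as a block (8 unadjusted, limma) and within 1 level (3 unadjusted, beside 133 of all genes called), 3 with kind and level, 1 with RNA integrity as a covariate and 10 to 14 without 1 array each. For 3bKI against 3aKO it was 17, and 10 with array weights, 0 with the level (8 unadjusted), 3 with kind and level, 0 with RNA integrity (5 unadjusted, beside 116 of all genes called) and 11 to 15 without 1 array each (11 without 3bKI 2). For 3aKO against wt it was 0 under every alternative run (1 to 5 members with an unadjusted p under 0.05, limma). Between kinds of array it was 20, and 9 with a replicate block. In 3aKO and 1KI, replicates 1 to 5 were Xist arrays and 6 to 10 Y-linked ones, so this block takes up most of the kind. The 9 therefore cannot show how firm the 20 are. The change that differed between kinds, tested after seeing the data, held for 2 members in 1KI, and for 1 with only genes above the median, with a replicate block or against 3aKO. In 3bKI it held for 1, and for 2 with a trend, above the median or with quantile normalization, 0 with a replicate block (9 unadjusted), 0 to 2 without 1 array each (0 without 3bKI 1, with 17 unadjusted) and 3 against 3aKO. A lone Xist 3bKI array was assumed to vary like the other groups. Cyp2c39 changed sign with the level as a block, to 0.18 in 1KI and 0.04 in 3bKI against 3aKO, and was at -0.25 and -0.30 with kind and level. The level rests on wt 1 and wt 2, both Y-linked. With a replicate block the counts were 0 for 3aKO, 12 and 16 for 1KI against wt and 3aKO, and 10 and 13 for 3bKI. Same-numbered arrays correlated over 0.1 in 7 of 10 pairs of 3aKO and 1KI, 6 of 10 of wt and 3aKO, 4 of 10 of wt and 1KI, 2 of 5 of wt and 3bKI and 1 of 5 of 3aKO and 3bKI, so the numbers were not taken to pair arrays. For wt and 3aKO, the pairs over 0.1 were those of the same kind of array, and the other pairs were of opposite kinds. These correlations thus follow the kind and do not test pairing. Without 1KI 6 the counts were 12 and 16, and without wt 1 and wt 2 they were 0, 11, 16, 13 and 15. For single members 661 alternatives kept direction and call, 125 lost the call and 2 changed sign.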

Other observations

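Of 12 genes of the clock and the PAR bZip factors, which act on some P450 genes, 7 fell, 3 rose and 2 were not called in 3bKI against wt, with a median of -0.74, where 15.9% of all genes fell and 13.4% rose. Per2, Per3 and Hlf were at -1.50, -1.91 and -0.68. In 1KI 2 fell and 3 rose, where 17.5% of all genes fell and 10.2% rose, with Dbp at -0.88 and Per1 at 0.62. Of 20 acute phase genes, 10 rose and 1 fell in 1KI, among them Lcn2 at 1.66 and Il1r1 at 1.01, and 5 rose and 2 fell in 3bKI, among them Saa1 at 1.19 and Lbp at 0.68. The median change of the list was 0.24 in 1KI and 0.04 in 3bKI. Over the 1KI arrays the mean of the list ran from 11.44 to 13.04, against 11.27 to 11.58 in wt. The rises in 1KI were thus uneven across arrays. Of 9 periportal genes, 1 rose and 0 fell in 1KI (limma, median 0.12), and 2 rose and 4 fell in 3bKI (median -0.07). Ass1, an enzyme of the urea cycle, was at 1.25 and 1.07, and Pck1, of gluconeogenesis, at -0.45 in 3bKI. Of 11 pericentral genes, the zone where most P450 enzymes act, 1 rose and 0 fell in 1KI (limma), and 1 rose and 2 fell in 3bKI, with Axin2 at 0.52 and Tbx3 at -0.82.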
